A study of Mus musculus with 18 samples.

Results

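The cell cycle and DNA replication genes described here are 36 mouse genes taken by symbol, out of 24394 symbols counted in 18 livers. They divide by role into 17 replication genes, 15 mitotic genes and 4 G1 genes. The list was set by name, with earlier results of these data known. Of the 36 genes, 29 had enough counts to be tested: 14 replication, 12 mitotic and 3 G1 genes. The other 7, Cdc6, Gins2, Uhrf1, Aurkb, Bub1, Cks2 and Ccne1, fell below the count filter and are described by their levels.

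The livers form 3 groups of 6. One group carried a tumour and the genotype Alb-Cre+/+;Stat3f/f. In these livers, written as Stat3-deleted, Cre recombinase driven by the albumin promoter removes the floxed part of Stat3 in hepatocytes. The labels do not say which other cells of the liver keep the gene. Another group was tumour-bearing and wild-type (WT), and the last was control WT. The tumour line is PDA.69, a pancreatic ductal adenocarcinoma line derived from KPC mice, and the labels list it for all 3 groups, the control livers included. The floxed genotype was measured only together with a tumour, since its tumour-free counterpart is not among the groups. The labels used here give no sex, age, strain, site or time of implantation. They number the livers within each group and do not say that each came from a separate mouse, so the p-values measure the spread between these libraries.

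RNA ends were read with a 3′ tag kit, which gives about 1 tag per polyadenylated transcript. Values are CPM, the counts per 1e6 counts of the library, scaled with the TMM factors of edgeR. Depth ranged over 7222882 to 9545442 counts per Stat3-deleted library, 6168658 to 8850200 per tumour-bearing WT library and 5212265 to 7159148 per control WT library. The 36 genes together took 0.0254 to 0.037% of these counts in Stat3-deleted livers, 0.0204 to 0.0373% in tumour-bearing WT livers and 0.0206 to 0.053% in control WT livers. A count of 0 in a library allows up to 3 counts, which is 0.329 to 0.518 CPM depending on the library and covers counting error only. Stat3 itself had 99.4, 116 and 132 CPM (lowest, median, highest) in Stat3-deleted, 163, 215 and 264 CPM in tumour-bearing WT, and 93.6, 110 and 148 CPM in control WT livers. Because only 3′ ends are read and the labels do not say which exons are floxed, this level cannot check the deletion.

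A resting cell commits to division when cyclins of the D and E type, with their kinases, release E2F transcription factors from the retinoblastoma protein family. E2F factors then drive the genes of DNA replication, such as those of the MCM helicase that opens the double helix. Genes of mitosis follow later in the cycle, mostly through the DREAM and MuvB complexes acting at promoter elements called CHR, with CCAAT boxes close by. In the adult liver most hepatocytes rest outside the cycle and can enter it after injury or loss of tissue, while immune and blood-forming cells in the organ can also divide. In bulk RNA, a change in the number of dividing cells and a change in RNA per cell cannot be told apart.

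The promoters were searched for letters of these elements. Windows from 250 bases before to 50 bases after the transcription start came from RefSeq (GRCm38.p6, the assembly of mm10), which held 29 of the 36 genes. Mcm4, Gins2, Ccna2, Aurkb, Stmn1, Ccnd1 and Ccne2 are named only. The searches covered both strands and allowed overlap. E2F was searched as TTCGCGC or its variant TTGGCGC or its variant TTCCCGC. CHR was searched as TTTGAA or its variant TTCGAA, and the third element as CCAAT. E2F letters stood in the promoters of 10 of 15 replication genes (66.7%) and 3 of 12 mitotic genes (25%), against 9.2% of 27025 genes with a promoter in the table. CHR letters stood in 2 of 15 replication genes (13.3%) and 9 of 12 mitotic genes (75%), against 21.7% of all genes. CCAAT stood in 9 of 15 (60%) and 11 of 12 (91.7%), against 41.1%. A match is a description of the letters, not a binding site.

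Shown here are 4 promoters, 5′ to 3′ on the strand of the gene, because they span these patterns and belong to genes the results turn on. Capitals mark the matches to E2F, CHR or CCAAT letters on either strand, and matches that touch run together. Mcm6 (chr1:128359656-128359955, minus strand) is a helicase gene with 5 E2F and 2 CCAAT matches, and Cdk1 (chr10:69352863-69353162, minus strand), the kinase that triggers mitosis, has E2F, CHR and CCAAT letters. Ccnb2 (chr9:70421505-70421804, minus strand), a cyclin partner of that kinase, has CHR and CCAAT letters without E2F letters. Tk1 (chr11:117825965-117826264, minus strand) encodes the thymidine kinase that salvages thymidine for DNA synthesis, and its window holds none of the letters searched.
Mcm6: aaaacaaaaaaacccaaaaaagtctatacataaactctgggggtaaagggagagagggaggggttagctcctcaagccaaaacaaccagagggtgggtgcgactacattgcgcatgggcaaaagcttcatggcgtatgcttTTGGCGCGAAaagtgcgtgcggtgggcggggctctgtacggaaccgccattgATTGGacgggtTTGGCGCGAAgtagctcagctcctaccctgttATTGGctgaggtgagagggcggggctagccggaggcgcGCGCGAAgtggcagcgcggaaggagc
Cdk1: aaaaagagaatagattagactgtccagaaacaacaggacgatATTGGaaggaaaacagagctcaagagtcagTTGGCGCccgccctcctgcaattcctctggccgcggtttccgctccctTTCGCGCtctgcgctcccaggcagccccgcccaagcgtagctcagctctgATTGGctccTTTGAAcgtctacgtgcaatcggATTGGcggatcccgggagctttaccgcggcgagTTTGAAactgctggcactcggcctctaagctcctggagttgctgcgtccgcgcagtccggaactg
Ccnb2: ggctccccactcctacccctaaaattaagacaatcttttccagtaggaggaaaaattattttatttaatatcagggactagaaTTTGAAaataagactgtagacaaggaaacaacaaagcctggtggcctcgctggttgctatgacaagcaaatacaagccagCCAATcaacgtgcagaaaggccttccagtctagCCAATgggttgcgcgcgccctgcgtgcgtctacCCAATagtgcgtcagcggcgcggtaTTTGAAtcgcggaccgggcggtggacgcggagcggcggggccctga
Tk1: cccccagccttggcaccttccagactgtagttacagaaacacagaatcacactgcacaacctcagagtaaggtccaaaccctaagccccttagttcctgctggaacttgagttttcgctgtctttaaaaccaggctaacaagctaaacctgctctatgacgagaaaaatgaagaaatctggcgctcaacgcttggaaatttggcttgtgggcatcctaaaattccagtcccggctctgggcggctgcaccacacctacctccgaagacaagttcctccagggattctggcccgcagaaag

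A pair of libraries stood apart before any comparison. The control WT liver of replicate 2 had the highest level of all 18 livers for 11 of the 15 mitotic genes and exceeded the other 5 control livers for 14 of the 15. Its 15 mitotic genes summed to 1034 counts, or 146 CPM (95% exact Poisson interval 137 to 155, counting error only), where the next control liver had 225 counts, or 38.9 CPM (34.0 to 44.3). It also exceeded the other controls for 11 of 17 replication genes and 1 of 4 G1 genes. Among 36 further mitotic genes that are not on the list, its sum was again the highest of 18 livers at 375 CPM. Its marker sums were not among the highest 4 of 18: granulocyte precursor markers summed to 11.7 CPM, lymphocyte markers to 44.4 CPM, and stellate cell markers to 609 CPM, rank 9, 5 and 5 of 18. Among the control livers, however, it had the highest stellate cell sum (next 554 CPM) and the highest hepatocyte sum (100000 CPM, next 81400). A single control liver exceeded it for lymphocyte, neutrophil, macrophage and endothelial markers, and more than 1 did for the other lists. The 35 further replication genes summed to 306 CPM, rank 14 of 18. Mcm10 alone, with levels given below, spread more widely among control livers than this sum did. The rank therefore says little about the other genes of that list. The tumour-bearing WT liver of replicate 6 had the smallest TMM factor, 0.7502, the highest Cdkn1a and the lowest Ccnd1 of all livers. Results that change without either library are given with and without it. Both libraries were picked out by levels of the listed genes, so adjusted p from fits without them are descriptive and not independent tests.

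**Figure D1:**
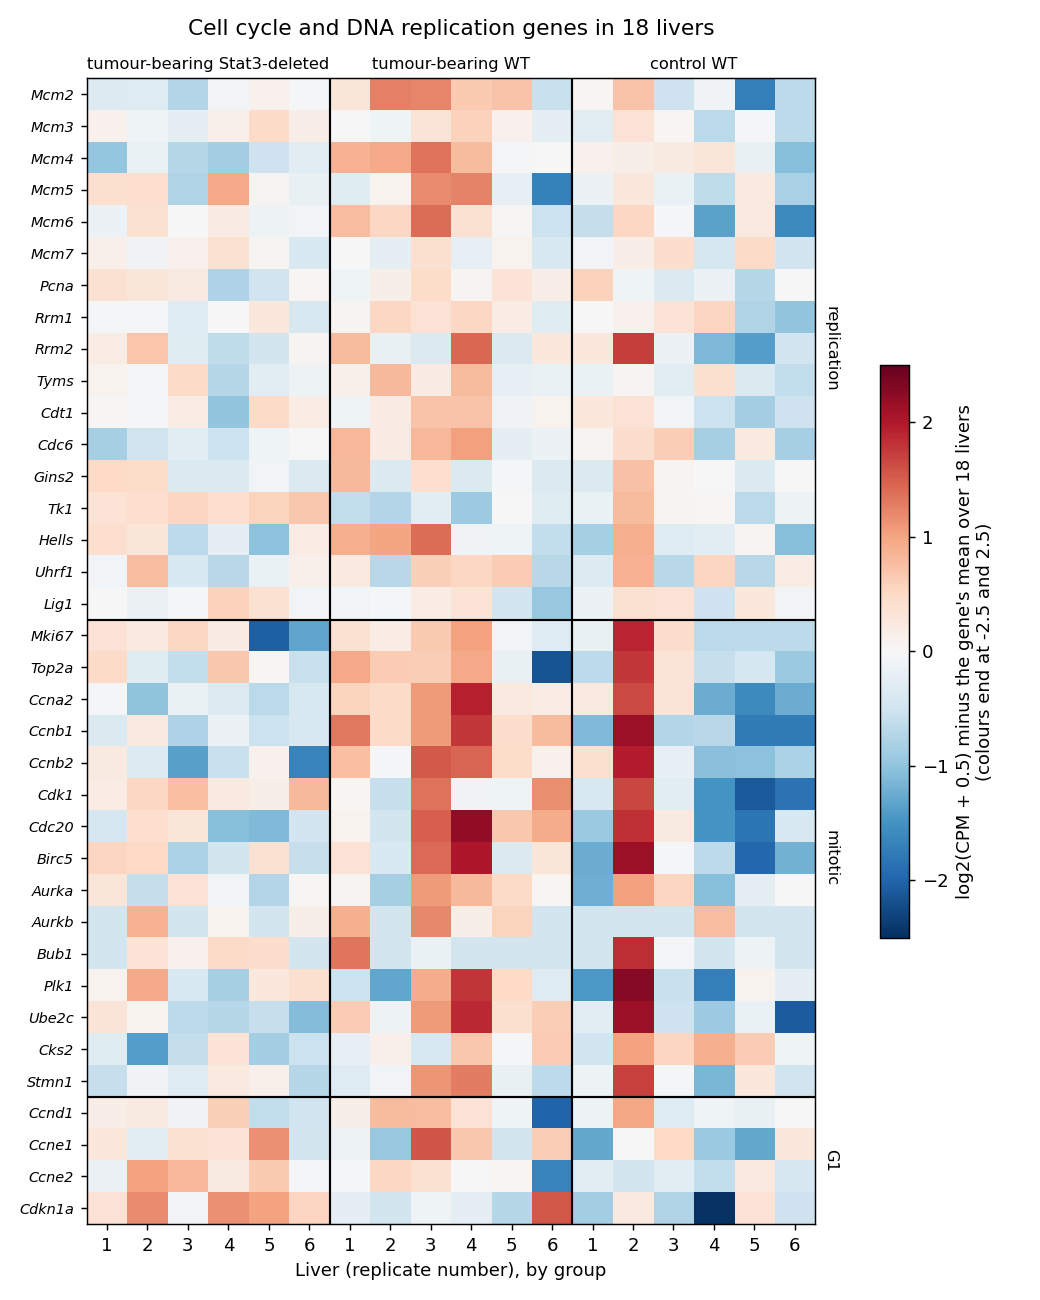
Levels of the 36 genes (rows, by role) in the 18 livers (columns, by group and replicate), as log2(CPM + 0.5) minus the mean of each gene over all livers, with red above and blue below that mean. Control WT replicate 2 is red across most mitotic rows, where 11 of 15 genes have their highest level, and the Tk1 row is red in all 6 Stat3-deleted livers.

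Over each role as a whole, the replication sums, Tk1 included, had similar means in the 3 groups, and the mitotic sums varied widely. The 17 replication genes summed to 121, 123 and 132 CPM (lowest, median, highest) in Stat3-deleted, 87.3, 118 and 153 CPM in tumour-bearing WT and 83.8, 104 and 159 CPM in control WT livers. The 15 mitotic genes summed to 27.3, 35.7 and 40.9 CPM in Stat3-deleted, 35.6, 45.2 and 105 CPM in tumour-bearing WT and 18, 23.9 and 146 CPM in control WT livers. Both sums overlap between all groups. Tk1 held a mean of 34.1, 17.6 and 25 CPM of the replication sum in Stat3-deleted, tumour-bearing WT and control WT livers. Without Tk1 the replication sum was 90.9 ± 5.61, 104 ± 24.1 and 87.3 ± 19.5 CPM (SD, n = 6) in the same order, again with overlap. The spread among the Stat3-deleted livers was narrow: their replication sum was 125 ± 4.37 CPM (SD, n = 6), against 121 ± 22.6 CPM in tumour-bearing WT and 112 ± 26.5 CPM in control WT livers. Their mitotic sum was 35.1 ± 5.38 CPM, against 58.7 ± 29 CPM in tumour-bearing WT livers. In control WT livers the mitotic sum was 44.9 ± 50 CPM, and 24.7 ± 8.41 CPM without replicate 2 (SD, n = 5).

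The log2 ratio of the replication sum to the mitotic sum was 1.85 ± 0.22 in Stat3-deleted, 1.16 ± 0.48 in tumour-bearing WT and 1.77 ± 0.85 in control WT livers (SD, n = 6 each). Its lowest value in tumour-bearing WT livers, 0.40, was in replicate 4, and its lowest in control WT livers, 0.13, was in replicate 2, while the 5 other control livers lay between 1.67 and 2.44. The ratio includes Tk1 and was not computed without it. The sums and ratios were not tested, since they combine chosen genes.

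**Figure D2:**
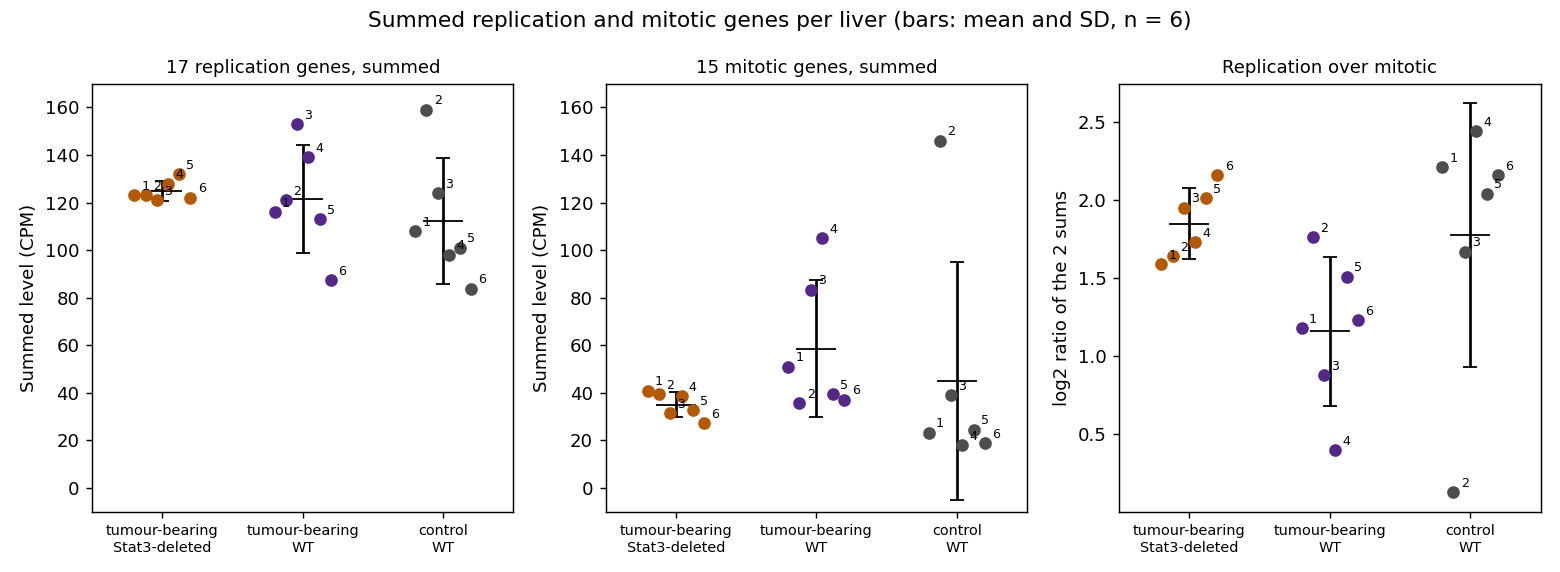
Summed CPM of the 17 replication genes, summed CPM of the 15 mitotic genes, and the log2 ratio of the 2 sums, 1 point per liver with its replicate number, with the mean and SD of each group (n = 6). The Stat3-deleted livers lie between 121 and 132 CPM for replication genes, and control WT replicate 2 lies apart at 146 CPM for mitotic genes.

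Counted over single genes, few passed the test. In tumour-bearing WT against control WT livers, 0 of the 29 tested genes passed an adjusted p of 0.05 in edgeR, where 2.25% of all 11218 genes tested passed (1.76% higher, 0.49% lower), and 0 passed in DESeq2, against 2.63% of its genes. Of the 29 genes 0 had livers that did not overlap between the groups, against 1.52% of all genes. At an unadjusted p under 0.05 there were 4 of the 29 (Mcm2, Mcm4 and Mcm6 on the higher side, Tk1 on the lower), against 16.2% of all genes. In Stat3-deleted against tumour-bearing WT livers, 2 of the 29 passed, Tk1 higher and Mcm4 lower, against 6.12% of all genes (2.89% higher, 3.23% lower), a share near the background. DESeq2 called the same 2 genes, against 5.22% of its genes. At an unadjusted p under 0.05 there were 8, against 19.4% of all genes. In Stat3-deleted against control WT livers, 0 of the 29 passed in edgeR, against 4.85% of all genes (2.19% higher, 2.66% lower), and 0 in DESeq2, against 5.02%. Of the 29 genes 0 did not overlap, against 3.82% of all genes. Cdkn1a, Ccne2 and Tk1, 3 genes, had an unadjusted p under 0.05, against 20.8% of all genes. With library totals alone as the scaling, 0, 2 and 0 of the 29 passed in the 3 comparisons, against 2.6, 6.19 and 4.56% of all genes. With a block for replicate number the same counts stood against 1.95, 6.33 and 5.08%. The comparisons share groups of livers, so their counts are not independent.

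**Figure D3:**
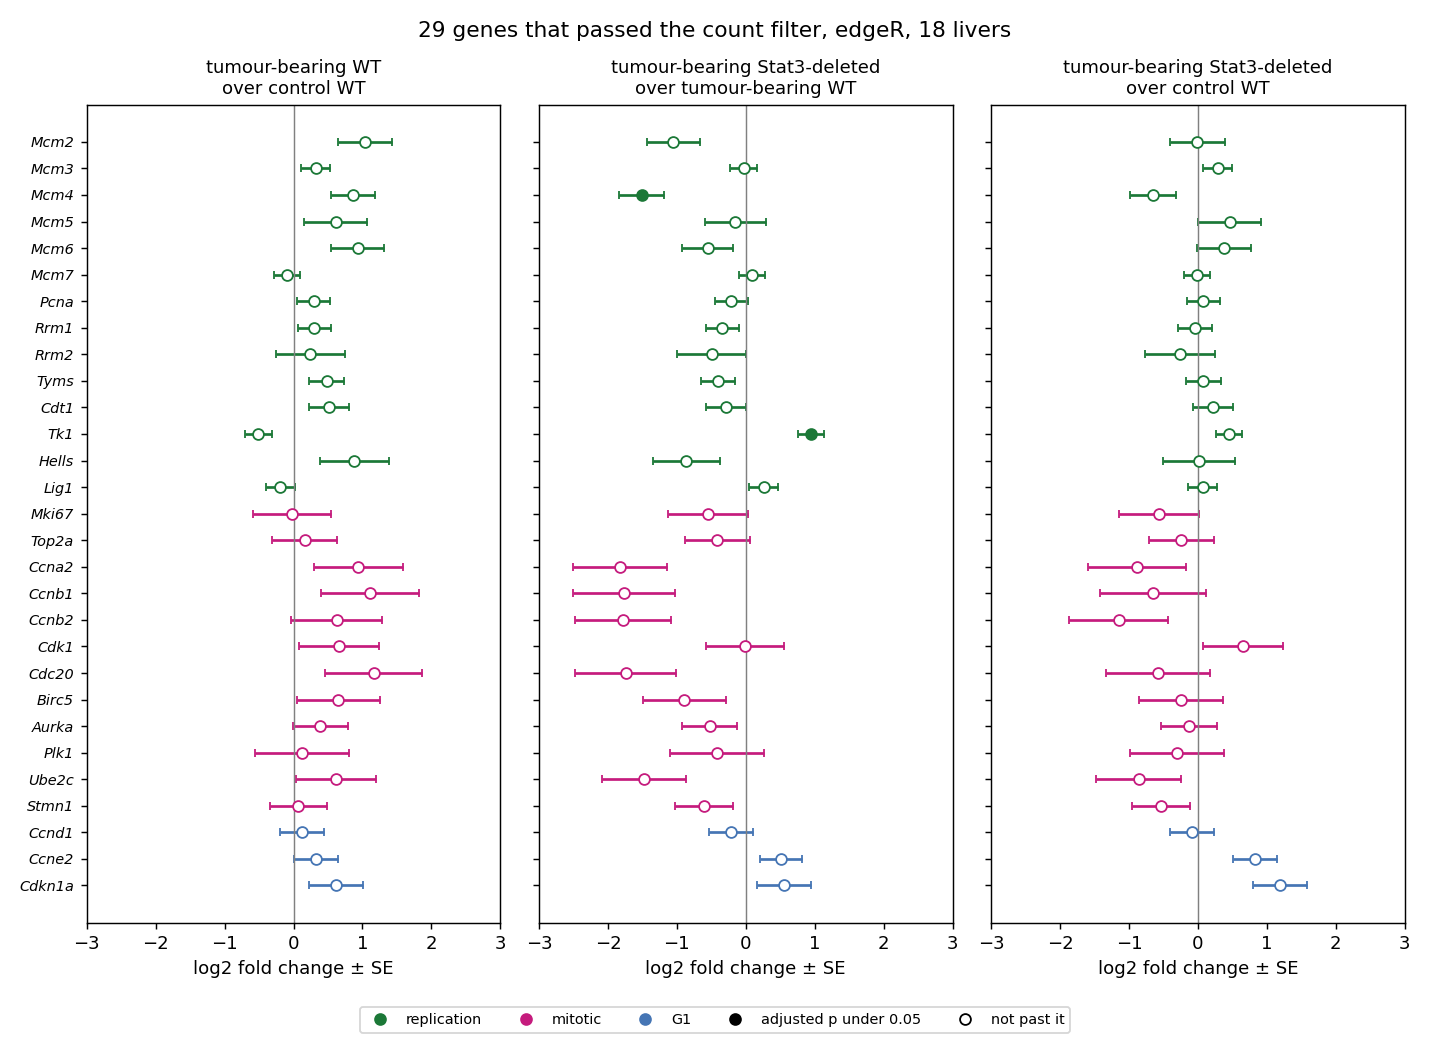
Log2 fold change with its standard error (SE) for the 29 tested genes in the 3 comparisons, from the edgeR fit of all 18 livers, coloured by role, with filled points for an adjusted p under 0.05. Tk1, higher by 0.95, and Mcm4, lower at -1.51, are the filled points, both in Stat3-deleted over tumour-bearing WT livers.

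Tk1 (chr11:117815519-117826087, minus strand), the salvage kinase whose promoter is shown above, was higher in Stat3-deleted than in tumour-bearing WT livers. It had 30.7, 33.6 and 38.9 CPM (lowest, median, highest) in Stat3-deleted, 12.6, 17.6 and 23.8 CPM in tumour-bearing WT and 14.9, 23.3 and 41.9 CPM in control WT livers. The lowest Stat3-deleted liver lay above the highest tumour-bearing WT liver, and among control livers replicate 2 alone exceeded every Stat3-deleted liver. The log2 fold change in Stat3-deleted over tumour-bearing WT livers was 0.95 (SE 0.19, edgeR adjusted p = 0.0038), higher in 6 of 6 livers than the mean of the other group, with adjusted p from 7e-04 to 0.013 when each of the 18 libraries was left out. Over control WT livers the log2 fold change was 0.45 (SE 0.19, edgeR adjusted p = 0.18), and 0.64 (adjusted p = 0.0297) without control replicate 2, a fit in which 5.49% of all genes passed. In tumour-bearing WT over control WT livers it was -0.51 (SE 0.20, edgeR adjusted p = 0.197).

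Tk1 does not stand alone in its stretch of the genome. The gene Afmid, which encodes a formamidase of tryptophan breakdown, starts on the opposite strand (chr11:117825503-117839908) and shares 585 bases with the 5′ end of Tk1. Its own annotated 3′ end lies outside Tk1. A further plus-strand gene, Gm20708, overlaps the last 500 bases of Tk1 and has no row of its own among the counts. Afmid was looked at for its position. It had 483, 567 and 611 CPM in Stat3-deleted, 96.9, 181 and 471 CPM in tumour-bearing WT and 297, 407 and 545 CPM in control WT livers. The order of the 3 group medians is the same as for Tk1. The log2 fold change of Afmid in Stat3-deleted over tumour-bearing WT livers was 1.28 (SE 0.27, edgeR adjusted p = 0.0045), and in tumour-bearing WT over control WT livers -0.83 (SE 0.26, adjusted p = 0.104). No source used here gives the strand setting of the counting, so in the last 500 bases of Tk1 its tags and those of Gm20708 cannot be told apart. Tags from the annotated 3′ end of Afmid fall outside Tk1.

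Mcm4 (chr16:15623897-15637400), a subunit of the MCM helicase, was lower in Stat3-deleted than in tumour-bearing WT livers. It had 1.23, 1.72 and 2.51 CPM in Stat3-deleted, 2.82, 5.55 and 8.19 CPM in tumour-bearing WT and 1.11, 3.20 and 3.66 CPM in control WT livers. Every Stat3-deleted liver lay below every tumour-bearing WT liver, and the Stat3-deleted and control ranges overlapped. The raw counts were 9 to 20 per library in Stat3-deleted and 19 to 68 in tumour-bearing WT livers. The log2 fold change was -1.51 (SE 0.33, edgeR adjusted p = 0.00602), lower in 6 of 6 livers, with adjusted p from 0.00249 to 0.024 over the 18 fits without 1 library. In tumour-bearing WT over control WT livers it was 0.86 (SE 0.32, edgeR adjusted p = 0.174), and in Stat3-deleted over control WT livers -0.65 (SE 0.33, adjusted p = 0.275). No other gene overlaps the last 500 bases of Mcm4 in GENCODE vM21.

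The other helicase subunits did not pass in any comparison of all 18 livers. Mcm2 had 1.57, 2.51 and 3.19 CPM in Stat3-deleted, 1.82, 4.99 and 7.64 CPM in tumour-bearing WT and 0.548, 2.30 and 5.08 CPM in control WT livers. Its log2 fold change was -1.05 (SE 0.38, edgeR adjusted p = 0.114) in Stat3-deleted over tumour-bearing WT livers, and -1.21 (adjusted p = 0.0409) without tumour-bearing WT replicate 6, where 8.04% of all genes passed. Mcm6 had 3.14 to 4.76 CPM in Stat3-deleted, 2.27 to 10.1 CPM in tumour-bearing WT and 0.835 to 5.22 CPM in control WT livers. Mcm3, Mcm5 and Mcm7 had log2 fold changes of -0.03, -0.15 and 0.09 in the same comparison. The 6 subunits assemble 1 ring, and within it the group differences ran from -1.51 for Mcm4 to 0.09 for Mcm7.

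Lig1, the ligase that joins Okazaki fragments, had 16.8, 18.4 and 28.1 CPM in Stat3-deleted, 9.38, 17.9 and 23.8 CPM in tumour-bearing WT and 12.9, 20.1 and 24.3 CPM in control WT livers. Mcm7 had 13.3, 18.6 and 23.0 CPM in Stat3-deleted, 13.2, 16.2 and 23.2 CPM in tumour-bearing WT and 12.3, 18.1 and 24.5 CPM in control WT livers. Both genes overlap fully between groups, with log2 fold changes between -0.19 and 0.26 for Lig1 and between -0.10 and 0.09 for Mcm7. Pcna, the sliding clamp of the polymerases, Rrm1 and Rrm2, the subunits of ribonucleotide reductase, and Tyms, thymidylate synthase, had adjusted p of 0.354 or more in the 3 comparisons. Pcna had 3.79 to 9 CPM in Stat3-deleted, 6.34 to 9.63 CPM in tumour-bearing WT and 3.97 to 10.4 CPM in control WT livers. Cdt1, which loads the helicase, had 1.95 to 6.26 CPM in Stat3-deleted, 4.02 to 7.48 CPM in tumour-bearing WT and 2.19 to 5.78 CPM in control WT livers. Hells, a chromatin remodeller of dividing cells, had 0.439 to 2.05 CPM in Stat3-deleted, 0.757 to 4.58 CPM in tumour-bearing WT and 0.418 to 3.10 CPM in control WT livers. Each of these ranges overlaps the others.

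The median log2 fold change of the 14 tested replication genes was 0.40 in tumour-bearing WT over control WT livers, where 11 of 14 were positive and the median of all genes was 0. It was -0.31 in Stat3-deleted over tumour-bearing WT livers, with 11 of 14 negative and an all-gene median of -0.03, and 0.07 in Stat3-deleted over control WT livers, with 9 of 14 positive and an all-gene median of -0.01. The 3 replication genes below the filter were near the floor: Cdc6, which helps load the helicase, had 10 counts over the 6 Stat3-deleted, 34 over the tumour-bearing WT and 17 over the control WT livers. Gins2 had 7, 8 and 7 counts, and Uhrf1, a reader of hemimethylated DNA, had 15, 20 and 16 counts in the same order. Without the filter their smallest edgeR adjusted p was 0.263, for Cdc6 in Stat3-deleted over tumour-bearing WT livers.

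**Figure D4:**
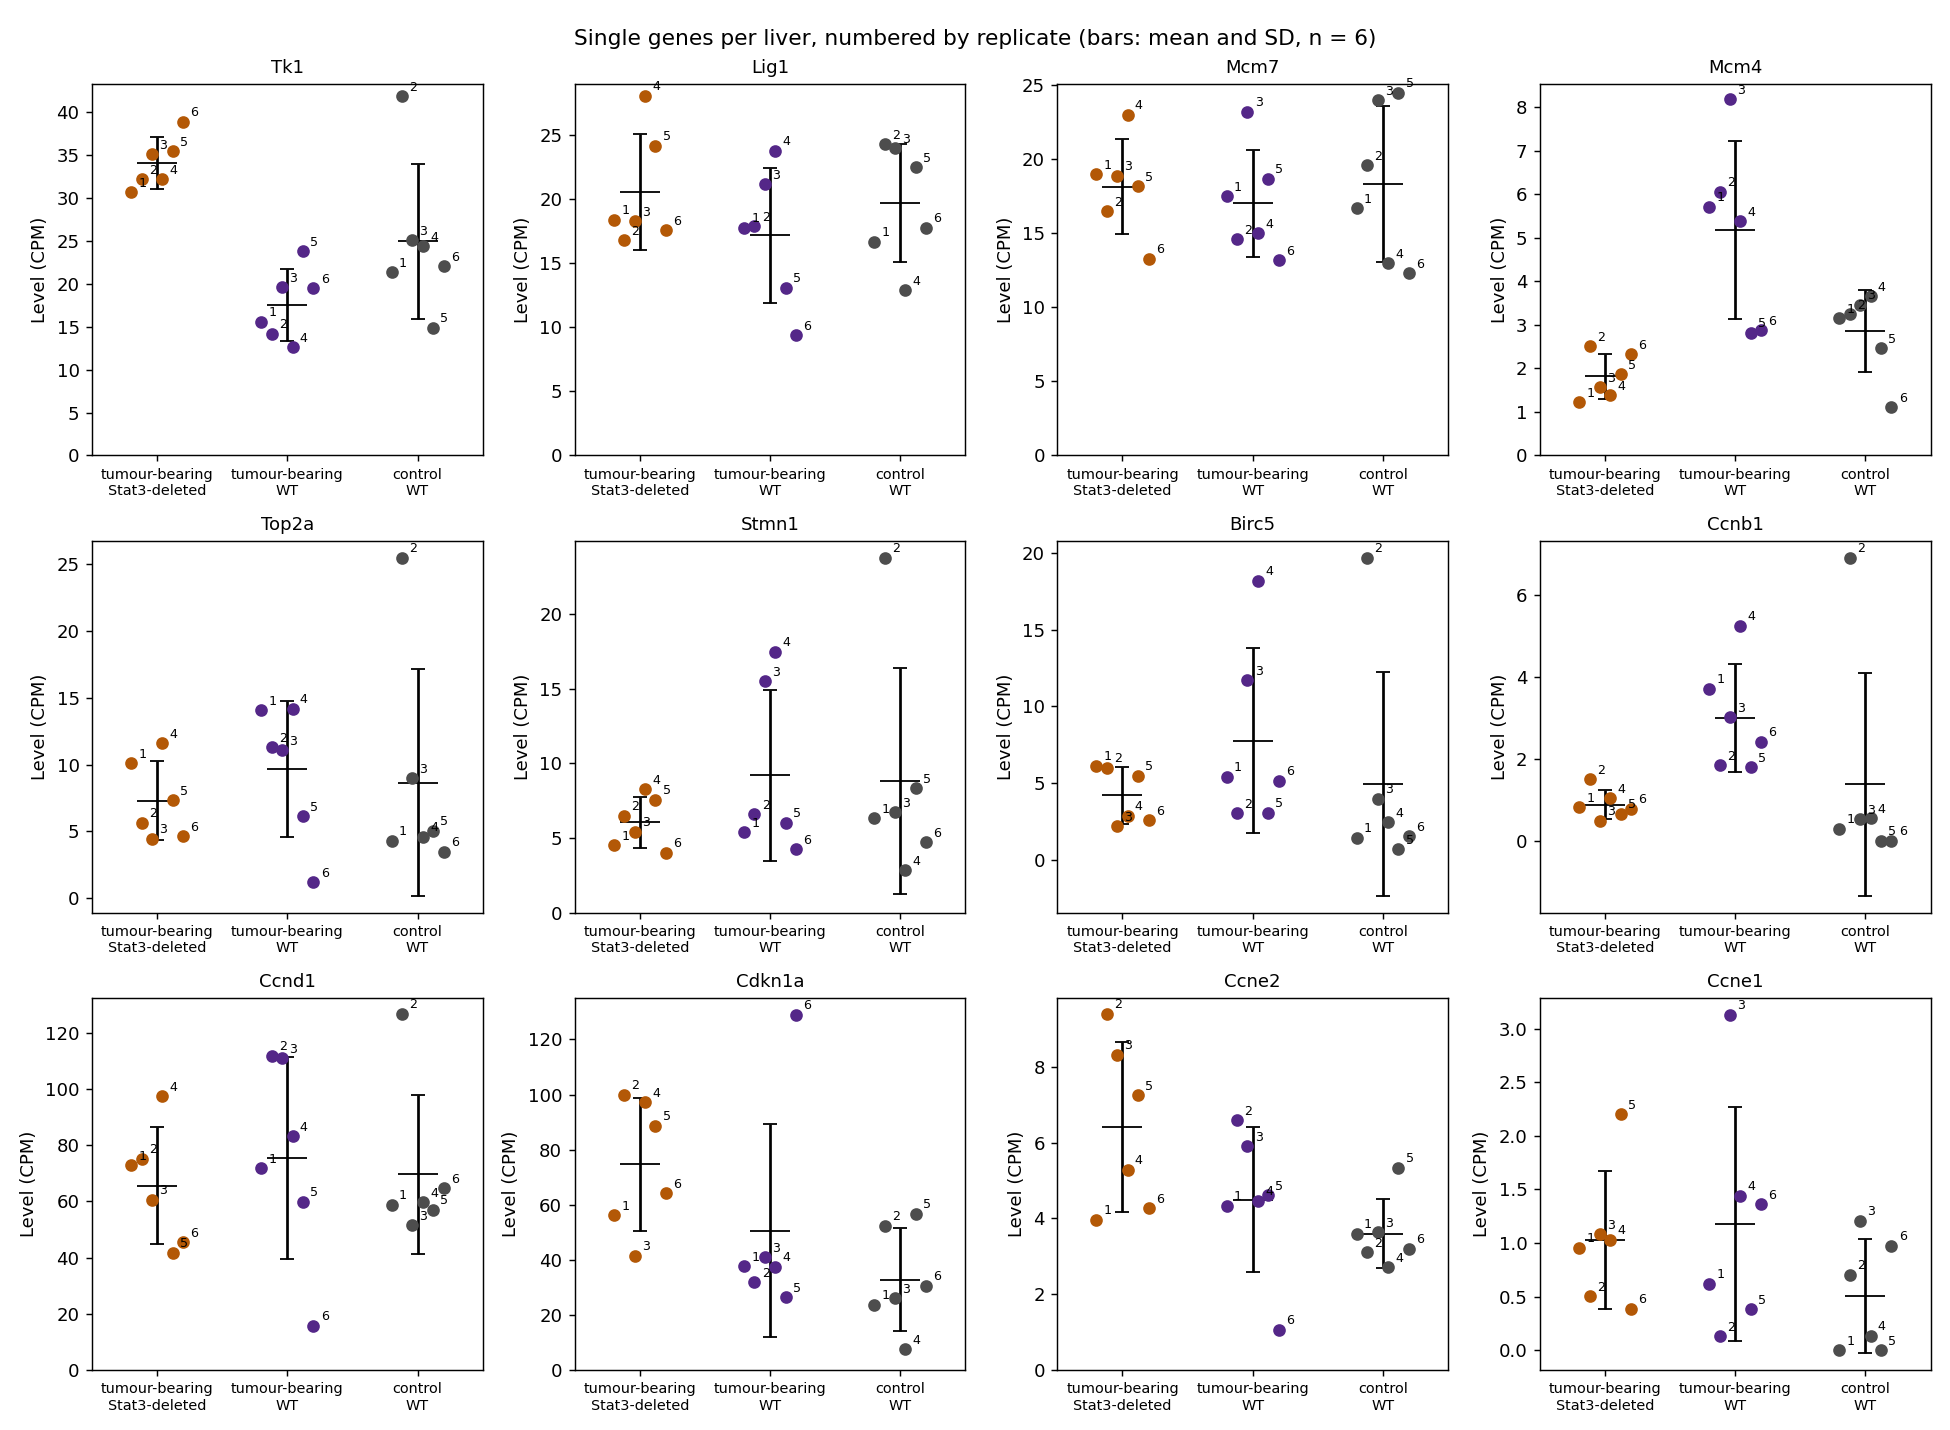
CPM of 12 genes in each liver, numbered by replicate, with the mean and SD of each group (n = 6): 4 replication genes in the top row, 4 mitotic genes in the middle row and the 4 G1 genes in the bottom row. The Stat3-deleted and tumour-bearing WT points do not overlap for Tk1, Mcm4 and Ccnb1, and control WT replicate 2 is the highest point for Top2a, Stmn1, Birc5, Ccnb1 and Ccnd1.

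In Stat3-deleted against tumour-bearing WT livers 0 of 12 mitotic genes passed the test with all 18 livers in edgeR, and 0 in DESeq2. The log2 fold change was below 0 for 12 of 12, from -1.82 to -0.01 with a median of -0.75, against an all-gene median of -0.03. At an unadjusted p under 0.05 there were 5 of 12, Ccna2, Ccnb1, Ccnb2, Cdc20 and Ube2c, against 19.4% of all genes, of which 1205 of 11218 lay on the lower side. With library totals alone as the scaling, Cdk1 turned to 0.10 and 11 of 12 stayed below 0. In a fit of these 2 groups alone, 10 mitotic genes passed the filter, of which 9 were negative and Cdk1 was at 0. Genes low in Stat3-deleted livers, such as Ccna2 at 0.955 CPM or less, could pass the filter through the other livers. The counts of negative signs and of small p carry this selection.

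Ccnb1, the B-type cyclin that activates Cdk1 at entry into mitosis, had 0.482, 0.797 and 1.5 CPM in Stat3-deleted, 1.79, 2.72 and 5.25 CPM in tumour-bearing WT and 0, 0.403 and 6.91 CPM in control WT livers. Every Stat3-deleted liver lay below every tumour-bearing WT liver, and 5 of the 6 control livers lay at or below 0.542 CPM. The log2 fold change in Stat3-deleted over tumour-bearing WT livers was -1.76 (SE 0.74, edgeR adjusted p = 0.181). It was -1.75 (adjusted p = 0.0238) without control replicate 2, a library of neither group, in a fit where 6.07% of all genes passed. In a fit of the 2 groups alone, where 5.57% passed, it was -1.74 (adjusted p = 0.011). In that fit Ube2c, the ubiquitin-conjugating enzyme of the anaphase-promoting complex, was also lower at -1.46 (adjusted p = 0.0404). Ube2c had 0.776, 1.26 and 2.87 CPM in Stat3-deleted, 1.98, 3.67 and 9.32 CPM in tumour-bearing WT and 0.139, 1.55 and 11.4 CPM in control WT livers.

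Ccna2, cyclin A2 of S phase and early mitosis, had 0.251, 0.668 and 0.955 CPM in Stat3-deleted, 1.21, 1.64 and 5.25 CPM in tumour-bearing WT and 0, 0.717 and 4.23 CPM in control WT livers. Its Stat3-deleted and tumour-bearing WT ranges did not overlap (log2 fold change -1.82, SE 0.68, edgeR adjusted p = 0.125). With Tk1, Mcm4 and Ccnb1 that makes 4 of the 29 genes whose 6 livers against 6 did not overlap, while 3.3% of all genes tested did so. Ccna2 and Ccnb1 are among the genes that the filter could admit through the other livers. Ccnb2, the second B-type cyclin on the list, had 0 to 1.36 CPM in Stat3-deleted, 1.05 to 4.09 CPM in tumour-bearing WT and 0.271 to 5.64 CPM in control WT livers. Cdc20, the activator of the anaphase-promoting complex, had 0.329 to 1.88, 0.791 to 7.74 and 0 to 5.78 CPM in the same order of groups. Cdk1 had a log2 fold change of -0.01 (SE 0.56) in Stat3-deleted over tumour-bearing WT livers, apart from its cyclins, with 3.19, 3.85 and 5.30 CPM in Stat3-deleted, 1.71, 2.78 and 7.95 CPM in tumour-bearing WT and 0.274, 1.35 and 10.0 CPM in control WT livers.

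Top2a, the topoisomerase that untangles chromosomes, had 4.46, 6.50 and 11.6 CPM in Stat3-deleted, 1.21, 11.2 and 14.2 CPM in tumour-bearing WT and 3.48, 4.84 and 25.5 CPM in control WT livers. Stmn1, a regulator of microtubules, had 4.01, 5.97 and 8.27 CPM in Stat3-deleted, 4.24, 6.30 and 17.5 CPM in tumour-bearing WT and 2.84, 6.53 and 23.8 CPM in control WT livers. Birc5, survivin of the chromosomal passenger complex, had 2.17, 4.18 and 6.14 CPM in Stat3-deleted, 3.03, 5.28 and 18.2 CPM in tumour-bearing WT and 0.685, 1.98 and 19.7 CPM in control WT livers. For each of the 3 genes control WT replicate 2 was the highest liver of all, and the groups overlapped. Mki67, the source of the proliferation marker Ki-67, had 0.110 to 3.13 CPM in Stat3-deleted, 1.51 to 4.59 CPM in tumour-bearing WT and 1.08 to 9.02 CPM in control WT livers. The kinase genes Aurka and Plk1 had log2 fold changes of -0.52 (SE 0.40) and -0.42 (SE 0.68) in Stat3-deleted over tumour-bearing WT livers. Of the mitotic genes below the filter, Aurkb had 10, 20 and 5 counts over the Stat3-deleted, tumour-bearing WT and control WT livers, Bub1 13, 9 and 16 and Cks2 22, 43 and 56. Without the filter their smallest edgeR adjusted p was 0.173, for Cks2 in Stat3-deleted over control WT livers.

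The comparison of tumour-bearing WT with control WT livers turned on a single control liver for the mitotic genes. With all livers their median log2 fold change was 0.62, 11 of 12 were positive, and the smallest edgeR adjusted p was 0.437. Without control replicate 2 the median was 1.80, 12 of 12 were positive, and 3 passed, against 2.07% of all genes in that fit. The log2 fold change of Ccnb1 was then 3.42 (SE 0.59, adjusted p = 0.00182), that of Cdk1 1.88 (SE 0.50, adjusted p = 0.0493) and that of Birc5 1.95 (SE 0.50, adjusted p = 0.0422). The liver left out was picked for its high level of these same genes, so its removal raises these values by construction. These adjusted p are descriptive, and the share of all genes is not a matched background for them. The replication median was 0.57 in that fit, with 0 passing in edgeR and 7 of 14 at an unadjusted p under 0.05, all higher, against 17.3% of all genes in that fit (8.6% on the higher side). Without tumour-bearing WT replicate 6, 0 of the 29 genes passed, against 1.81% of all genes, and with the 2 WT groups alone 0 of 28, against 1.18%. Within replicates 1 to 3, whose labels share a run of numbers that includes control replicate 2, the mitotic median was -0.23 and 1 of 11 genes was positive. Within replicates 4 to 6 it was 2.39 and 9 of 9 were positive, and 0 of the tested members passed in either of these fits of 3 livers against 3, where 0.349 and 0.459% of all genes passed.

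In Stat3-deleted over control WT livers the mitotic median was -0.55 with all livers, 11 of 12 negative, and 0.42 without control replicate 2, 11 of 12 positive. Cdk1 was then higher by 1.86 (SE 0.49, edgeR adjusted p = 0.0307), and it was higher in 6 of 6 Stat3-deleted livers than the control mean in the fit of all livers, where its log2 fold change was 0.65 (adjusted p = 0.566). The difference between the fits is 1 library, picked out for its high level of these genes. With these 2 groups alone and all their livers, 8 mitotic genes passed the filter, with a median of -0.27 and 7 negative.

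**Figure D5:**
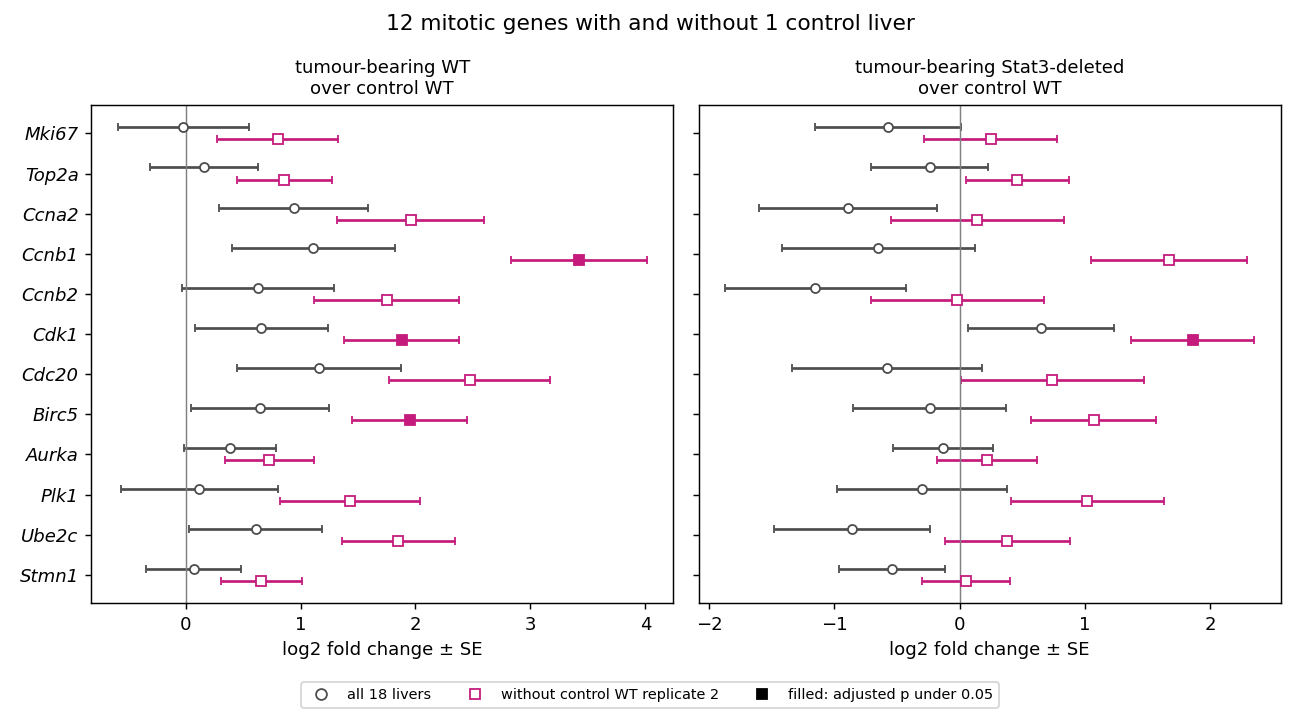
Log2 fold change with SE of the 12 tested mitotic genes over control WT livers, for tumour-bearing WT (left) and tumour-bearing Stat3-deleted livers (right), with all 18 livers (circles) and without control WT replicate 2 (squares), filled where the adjusted p is under 0.05. Every square lies right of its circle, and the filled squares are Ccnb1, Cdk1 and Birc5 on the left and Cdk1 on the right.

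Beside the mitotic levels stand the marker sums of other cell types. The 10 granulocyte precursor markers summed to 8.16 to 10.7 CPM in Stat3-deleted, 63.8 to 168 CPM in tumour-bearing WT and 8.92 to 14.9 CPM in control WT livers, and most of this was Prtn3, with 53.8 to 142 CPM in tumour-bearing WT livers. Elane and Mpo, defining markers of these cells, stayed at 3.20 CPM or less in every liver, and Ctsg and Ms4a3 were at 0 in all 6 Stat3-deleted livers. Of the 3 granulocyte precursor markers tested, 0 rose and 1 fell in Stat3-deleted against tumour-bearing WT livers, against 2.89 and 3.23% of all genes. The 8 mature neutrophil markers summed to 38.1 to 106 CPM in Stat3-deleted, 70.2 to 353 CPM in tumour-bearing WT and 23.8 to 52.9 CPM in control WT livers. Of the 4 tested, 4 fell in Stat3-deleted against tumour-bearing WT livers, against 3.23% of all genes.

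The tumour-bearing WT livers of replicates 3 and 4 had the highest mitotic sums of that group, at 83.3 and 105 CPM. They also ranked 1 and 2 of 18 for the granulocyte precursor sum (168 and 135 CPM), which was mostly Prtn3 as given above. For the neutrophil sum they ranked 2 and 1 (283 and 353 CPM). They ranked 2 and 1 for the 10 cholangiocyte, ductal and tumour epithelium markers too, at 171 and 182 CPM. Those markers summed to 53 to 87.3 CPM in Stat3-deleted, 75.2 to 182 CPM in tumour-bearing WT and 58.5 to 84.7 CPM in control WT livers, with Tff1 at 0 in all livers, and 0 of 6 rose and 2 fell in Stat3-deleted against tumour-bearing WT livers. Lymphocyte and plasma cell markers (12 of 15 measured) summed to 9.52 to 20.3, 17.5 to 57.5 and 8.36 to 86.8 CPM in the same order, with Cd79a at 0 in Stat3-deleted and control WT livers, and of the 5 tested 0 rose and 2 fell in Stat3-deleted against tumour-bearing WT livers. Of all genes tested in that comparison, 2.89% rose and 3.23% fell. The part of these marker sums in the mitotic levels was not tested.

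The macrophage, endothelial and stellate cell sums overlapped between groups, while single markers differed. In Stat3-deleted against control WT livers, 4 of 14 macrophage and 2 of 10 endothelial markers rose, 0 fell, and 0 of 10 stellate markers passed, against 2.19% higher and 2.66% lower of all genes. In tumour-bearing WT against control WT livers 1 of 14 macrophage markers rose, against 1.76% of all genes, and 14 of 14 were positive. These calls were kept in 11 to 15 of the 18 fits without 1 library. Kupffer cell and macrophage markers summed to 877 to 2330 CPM in Stat3-deleted, 871 to 2070 CPM in tumour-bearing WT and 492 to 1290 CPM in control WT livers, endothelial markers to 322 to 437, 326 to 412 and 275 to 380 CPM, and stellate cell and fibroblast markers to 469 to 800, 351 to 833 and 411 to 609 CPM. Erythroid precursor markers (12 of 14 measured, with Hba-a1, Hba-a2, Hbb-bs and Hbb-bt at 0 in every liver) summed to 265 to 339, 321 to 474 and 276 to 335 CPM. Only 4 of these markers passed the count filter, and with no globin counts the sum is not read as a level of erythroid precursors. The 10 hepatocyte markers, albumin among them, summed to 108000 to 122000 CPM in Stat3-deleted livers, 75500 to 163000 CPM in tumour-bearing WT livers and 65000 to 100000 CPM in control WT livers, so the Stat3-deleted livers all lay above the controls. Hepatocyte markers were thus present in every liver, as the labelled tissue has them. The part of these sums in the comparisons with control WT livers was not tested.

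Among the G1 genes none passed with all 18 livers. Ccnd1, cyclin D1, which couples growth signals to the cycle, had 41.8, 66.7 and 97.6 CPM in Stat3-deleted, 15.7, 77.6 and 112 CPM in tumour-bearing WT and 51.5, 59.3 and 127 CPM in control WT livers. The groups overlapped, and the log2 fold changes lay between -0.21 and 0.12. The lowest tumour-bearing WT value was in replicate 6 and the highest control value in replicate 2.

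Cdkn1a, which encodes the kinase inhibitor p21, a target of p53, had 41.5, 76.4 and 100 CPM in Stat3-deleted, 26.4, 37.6 and 129 CPM in tumour-bearing WT and 7.45, 28.2 and 56.7 CPM in control WT livers. Tumour-bearing WT replicate 6 had 129 CPM, while the 5 others of that group lay at 40.8 CPM or less. In Stat3-deleted over control WT livers the log2 fold change was 1.19 (SE 0.39, edgeR adjusted p = 0.082), higher in 6 of 6 livers. It was 1.18 (adjusted p = 0.0415) in a fit of the 2 groups alone, where 8.32% of all genes passed. Without tumour-bearing WT replicate 6, where 6.95% passed, it was 1.18 (adjusted p = 0.0256). In Stat3-deleted over tumour-bearing WT livers it was 0.56 (SE 0.39, edgeR adjusted p = 0.451), and 1.11 (adjusted p = 0.0421) without that library.

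Ccne2, cyclin E2, had 3.96, 6.27 and 9.40 CPM in Stat3-deleted, 1.06, 4.54 and 6.59 CPM in tumour-bearing WT and 2.71, 3.40 and 5.34 CPM in control WT livers. Its log2 fold change in Stat3-deleted over control WT livers was 0.83 (SE 0.32, edgeR adjusted p = 0.128), higher in 6 of 6 livers, and 0.83 (adjusted p = 0.0486) without tumour-bearing WT replicate 6. Ccne1, cyclin E1, below the filter, had 52, 54 and 20 counts over the Stat3-deleted, tumour-bearing WT and control WT livers, and its smallest edgeR adjusted p without the filter was 0.464, in tumour-bearing WT over control WT livers.

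The wider pathway was read from 4 further lists. Of 27 tested genes among 35 other replication genes, Mcm10, which activates the helicase at origins, was the single one to pass in any comparison in edgeR. It had 117, 130 and 143 CPM in Stat3-deleted, 26.6, 40.2 and 60.7 CPM in tumour-bearing WT and 46.5, 79.4 and 202 CPM in control WT livers. It was higher in Stat3-deleted than in tumour-bearing WT livers (log2 fold change 1.65, SE 0.26, edgeR adjusted p = 0.000262), 1 of 27 against 6.12% of all genes, and lower in tumour-bearing WT than in control WT livers (-1.27, SE 0.26, adjusted p = 0.00736), and both calls were kept in all 18 fits without 1 library. In tumour-bearing WT against control WT livers DESeq2 also called Gins1, of the GINS complex of the helicase, and Ung, the uracil-DNA glycosylase, both higher, at 1.43 (DESeq2 adjusted p = 0.0162) and 1 (0.022). Their edgeR adjusted p were 0.0555 and 0.0581. The median of the 27 genes was -0.01 in Stat3-deleted over tumour-bearing WT livers.

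Of 24 tested among 36 other mitotic genes, 1 rose and 0 fell in Stat3-deleted against tumour-bearing WT livers, against 2.89 and 3.23% of all genes, with a median of -0.53 and 20 of 24 negative. The gene that rose was Pttg1, securin, which holds back the separation of chromatids, at 76.9, 102 and 118 CPM in Stat3-deleted, 54.4, 64.2 and 78.1 CPM in tumour-bearing WT and 61.0, 70.3 and 85.8 CPM in control WT livers (log2 fold change 0.59, SE 0.13, edgeR adjusted p = 0.00649). Over control WT livers Pttg1 was higher by 0.45 (adjusted p = 0.0448) and Smc4, a condensin subunit, lower at -0.70 (adjusted p = 0.0337). DESeq2 also called Smc2, another condensin subunit, lower at -0.94 (DESeq2 adjusted p = 0.0463, edgeR adjusted p = 0.0818). The Pttg1 call over controls was kept in 6 of the 18 fits without 1 library (adjusted p 0.0316 to 0.105) and the Smc4 call in 10 (0.016 to 0.0849). In tumour-bearing WT against control WT livers 0 of the 24 passed in edgeR, 0 passed in DESeq2, and 1 had an unadjusted p under 0.05, with a median of 0.21.

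Among 26 tested genes of G1 control, E2F and DREAM, 0 rose and 2 fell in Stat3-deleted against tumour-bearing WT livers, a share near the 6.12% of all genes. E2f2, an activating E2F factor, had 0.273, 1.75 and 2.17 CPM in Stat3-deleted, 2.47, 3.50 and 5.90 CPM in tumour-bearing WT and 1.73, 3.80 and 5.70 CPM in control WT livers (log2 fold change -1.33, SE 0.37, edgeR adjusted p = 0.0314, in 13 of 18 fits without 1 library). Cdkn2c, an inhibitor of the cyclin D kinases, had 0.964 to 3.55, 5.38 to 8.40 and 1.37 to 6.63 CPM in the same order (log2 fold change -1.2, SE 0.31, edgeR adjusted p = 0.0217, in 17 of 18 fits, lost without tumour-bearing WT replicate 4 at 0.06). E2f2 was also lower in Stat3-deleted than in control WT livers, at -1.32 (adjusted p = 0.0394), a call kept in 7 of 18 such fits. In tumour-bearing WT against control WT livers 0 of the 26 passed in edgeR and 0 in DESeq2, and 4 had an unadjusted p under 0.05.

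Cdkn1a is itself a target of p53, and among 19 tested genes of 23 other p53 targets, 1 rose and 4 fell in Stat3-deleted against tumour-bearing WT livers, against 2.89 and 3.23% of all genes. Trp53inp1, a p53-induced nuclear protein, had 97.4, 143 and 278 CPM in Stat3-deleted, 33.6, 51 and 90 CPM in tumour-bearing WT and 41.2, 70.6 and 120 CPM in control WT livers (log2 fold change over tumour-bearing WT 1.69, SE 0.27, edgeR adjusted p = 0.000329). It was also higher than in control WT livers, by 1.2 (adjusted p = 0.013). Plk2, a stress-induced kinase, was lower in Stat3-deleted livers than in both other groups, at -1.29 (adjusted p = 0.0182) and -1.48 over control WT (adjusted p = 0.0129). Gadd45a at -2.24 (adjusted p = 0.039) and Btg2 at -1.53 (adjusted p = 0.0342) were lower than in tumour-bearing WT livers, and these calls were kept in 8 and 12 of the 18 fits without 1 library. Btg2 had 168 CPM as its highest tumour-bearing WT value, and its adjusted p was 0.144 without replicate 6 of that group. The fourth to fall was Perp, at -0.51 (adjusted p = 0.0435, kept in 8 of 18 fits), and over control WT livers Mdm2 also rose, by 0.52 (adjusted p = 0.0396, kept in 8 of 18 fits). Btg2 was higher in tumour-bearing WT than in control WT livers by 1.65 (adjusted p = 0.0441), kept in 6 of 18 fits and at an adjusted p of 0.157 without tumour-bearing WT replicate 6. The list thus held members of both directions, with a median of -0.42 in Stat3-deleted over tumour-bearing WT livers.

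The position of some genes bears on the comparison between genotypes. Stat3 lies on chromosome 11 (chr11:100886806-100939594), and 5 of the 36 genes share that chromosome: Top2a 1.86, Cdc6 1.96, Tk1 and Birc5 16.9 each, and Aurkb 31.8 Mb away. Alleles inherited along with the floxed Stat3 and the loss of Stat3 cannot be told apart for these genes in the 2 comparisons that involve Stat3-deleted livers. Tags of Mcm7, Cdt1, Gins2, Ccna2, Cdc20, Ube2c, Ccnd1 and Ccne2 end where another annotated gene overlaps their last 500 bases, and Pcna, Tyms, Ccnb1 and Ccnb2 have annotated pseudogene copies, so their counts are uncertain to that extent. The labels also carry runs of numbers that set all Stat3-deleted livers apart from all WT livers, so run and genotype cannot be told apart.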

How the data were processed

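The authors deposited a merged table of raw counts per gene symbol, 1 column for each of the 18 libraries, with STAR and mm10 named in the submitters' processing notes. The version of STAR, how reads were filtered, and the tool, annotation and strand option of the counting were not given in the sources used here. Per the labels' protocols, RNA came from TRIzol-stored livers by an RNeasy Mini kit, and the library kit was QuantSeq 3′ FWD (Lexogen). All 18 count columns matched a sample and 0 were left unused. Of 24421 symbols, 27 had become spreadsheet date numbers (0.103 to 0.166% of the counts) and were left out.

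In R 4.3.3, edgeR 4.0.16 computed TMM factors, 11218 genes remained after filterByExpr, and a quasi-likelihood model with 1 coefficient per group over 18 libraries (15 residual degrees of freedom) was tested two-sided for 3 contrasts. Adjusted p are Benjamini-Hochberg values over all 11218 genes, with a threshold of 0.05. The common biological coefficient of variation was 0.281. A gene counts as higher in a liver where its CPM exceeds the mean of the other group. The fit was tested on simulated data. Of 100 simulated 2-fold changes it recovered 61, 54 and 70 in the 3 comparisons, and of 100 4-fold changes 95, 89 and 89. A gene that did not pass can therefore still differ between groups. The closest pair of libraries had a correlation of 0.974 in log2 CPM, and 0 pairs were identical.

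The members, gene lists, marker lists and motifs were chosen with earlier results of these data known. Named in full are members past the threshold or with the 3 highest means of their role. Also named are Stat3 and up to 4 genes per pathway list with the smallest adjusted p among those past the threshold. Afmid, for its position, and Perp, Mdm2, Gins1, Ung, Smc2, Prtn3, Elane and Mpo were added after their values were seen, as were full values of other members. Positions and promoters came from RefSeq (GRCm38.p6) and overlaps from GENCODE vM21. Alternatives tried were a test with DESeq2 1.42.0, scaling by RLE or by library totals alone, the count filter dropped or raised to 1 CPM in 6 libraries, the 2 groups alone, a block for replicate number or label-number run, and leaving out each library. The fits within label-number runs were added after seeing the data. Python 3.11.15 with pandas 2.3.3 and matplotlib 3.10.9 drew the plots.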

Additional observations from a re-analysis of the deposited data

Results flagged for a closer look

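In 18 of 96 groups of 6 livers examined (each gene or sum in each group), 1 liver lay further from its group than the 95% limit of Dixon's test for an outlying value. Chance gives this in about 1 of 20 groups where values follow a normal distribution. CPM of genes with few counts need not follow one, so the rate due to chance is not known here. Of these, 15 were the control WT liver of replicate 2, and its values rest on 1 library, so they are 15 readings of 1 liver. Among mitotic genes it had 9.02 CPM for Mki67 (next control 2.94), 25.5 for Top2a (8.99), 4.23 for Ccna2 (1.38), 6.91 for Ccnb1 (0.542), 5.64 for Ccnb2 (1.58) and 10.0 for Cdk1 (2.25). It also had 5.78 CPM for Cdc20 (1.56), 19.7 for Birc5 (3.97), 11.7 for Plk1 (2.19), 11.4 for Ube2c (1.92) and 23.8 for Stmn1 (8.36). Of the other roles it stood out for the nucleotide enzyme gene Rrm2, at 10.9 CPM (next control 3.59), and for Ccnd1, at 127 CPM (64.7). Its mitotic sum was 146 CPM (next 38.9), and its log2 ratio of replication to mitotic sum was 0.13 (next 1.67). Within the tumour-bearing WT group, replicate 4 had 5.25 CPM of Ccna2 (next 2.65) and replicate 6 had 129 CPM of Cdkn1a (next 40.8). Control WT replicate 5 had 5.34 CPM of Ccne2 (next 3.63). What sets these livers apart was not tested.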

How the results depend on the processing

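Tk1 and Mcm4 passed in Stat3-deleted against tumour-bearing WT livers under every alternative run for that comparison (DESeq2, other scalings and filters, 2 groups alone, replicate block, each library left out). Genes past the threshold in tumour-bearing WT against control WT livers numbered 252, and 448 with DESeq2, 128 with the 2 groups alone, 126 when the run of label numbers was blocked, and 38 and 50 within replicates 1 to 3 and 4 to 6. They were 197 higher and 55 lower, but 115 higher and 177 lower with library totals alone, a scaling that shifts the median of all genes by -0.19 (0.07 in Stat3-deleted over tumour-bearing WT and -0.12 over control WT livers). In Stat3-deleted against control WT livers 544 passed, 856 with DESeq2 and 894 with the 2 groups alone. With the 2 groups alone, 4 of the 27 members tested passed in Stat3-deleted against tumour-bearing WT livers, against 5.57% of all genes. In Stat3-deleted against control WT livers it was 1 of 24, against 8.32% of all genes. Leaving out 1 library gave 132 to 462, 469 to 906 and 258 to 783 genes in the 3 comparisons, and 0 to 3, 2 to 4 and 0 to 2 of the 36 genes. The replicate block gave 219, 710 and 570 genes, and 0, 2 and 0 of the 36, so it changed no call among them. Of the pathway genes named, it ended the calls of Btg2 in tumour-bearing WT against control WT livers (adjusted p = 0.0945) and of Btg2 and Perp in Stat3-deleted against tumour-bearing WT livers (0.0887 and 0.0743), and no others. By the numbers, 1 of 6 livers in tumour-bearing WT over control WT, 1 of 6 in Stat3-deleted over tumour-bearing WT and 0 of 6 in Stat3-deleted over control WT correlated best with its own number. Libraries of the same number correlated at -0.13 to 0.31 in their deviations. Such correlations cannot show whether livers were paired by design, which the labels do not say. The label numbers of control WT and tumour-bearing WT livers of the same replicate mostly follow each other. In tumour-bearing WT over control WT livers the replicate block moved the mitotic median from 0.62 to 1.08. The cause of these changes was not tested, save that fewer libraries enter some fits.

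Changes of sign concerned log2 fold changes that passed in neither setting. With library totals alone these were, in tumour-bearing WT over control WT livers, Plk1 (-0.10), Stmn1 (-0.13) and Ccnd1 (-0.02), in Stat3-deleted over tumour-bearing WT livers Mcm3 (0.04) and Cdk1 (0.10), and over control WT livers Pcna (-0.04), Tyms (-0.05), Hells (-0.09) and Lig1 (-0.05). With 2 groups alone, Cdk1 was at 0. With the replicate block these were Mki67 (0.28) in tumour-bearing WT over control WT livers, Mcm5 (0.02) and Cdk1 (0.02) in Stat3-deleted over tumour-bearing WT livers, and Mcm2 (0.12), Mcm7 (0.02), Rrm1 (0.03), Ccnb1 (0.18), Birc5 (0.34) and Plk1 (0.18) in Stat3-deleted over control WT livers. In tumour-bearing WT over control WT livers, the run block gave 0.21 for Mki67. Within replicates 1 to 3 of those groups, Rrm2 (-0.79), Top2a (-0.11), Ccna2 (-0.23), Ccnb2 (-0.16), Cdk1 (-0.19), Cdc20 (-0.23), Birc5 (-0.33), Aurka (-0.08), Ube2c (-0.44) and Stmn1 (-0.43) changed sign, and within replicates 4 to 6 Ccnd1 (-0.19) and Ccne2 (-0.15). Leaving out each library changed the sign of 29 log2 fold changes, given as lowest and highest. For tumour-bearing WT over control WT livers, these were Plk1 -0.44 and 1.43, Stmn1 -0.22 and 0.66, Mki67 -0.22 and 0.80, Top2a 0 and 0.86, Ccnd1 -0.05 and 0.36 and Rrm2 -0.15 and 1.02. For Stat3-deleted over tumour-bearing WT livers, these were Mcm3 -0.13 and 0.08, Mcm5 -0.37 and 0.16, Cdk1 -0.17 and 0.29 and Plk1 -0.67 and 0.14. For Stat3-deleted over control WT livers, these were Mcm2 -0.22 and 0.31, Hells -0.16 and 0.48, Rrm2 -0.50 and 0.53, Mki67 -0.77 and 0.25, Top2a -0.43 and 0.46, Ccna2 -1.15 and 0.14, Ccnb1 -0.91 and 1.67, Cdc20 -0.89 and 0.74, Birc5 -0.47 and 1.07, Aurka -0.32 and 0.22, Plk1 -0.57 and 1.02, Ube2c -1.11 and 0.38, Stmn1 -0.74 and 0.05, Ccnd1 -0.24 and 0.15, Mcm7 -0.11 and 0.09, Rrm1 -0.18 and 0.11, Lig1 -0.04 and 0.12, Pcna -0.02 and 0.26 and Tyms -0.07 and 0.20.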
